A study of Mus musculus with 6 samples.

Results

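The kinases of the mitogen-activated protein (MAP) kinase cascade were compared between RNA recovered with Staufen2 and total input RNA in a mouse podocyte line. Members were the genes whose symbols consist of Mapk, Map2k, Map3k or Map4k and a number, which gave 38 of the 19938 genes measured. They comprised 11 MAP kinases, 6 MAP kinase kinases (MAP2K), 18 MAP3K genes and 3 MAP4K genes. Each gene was represented by 1 probe set that the annotation assigns to a single symbol, and where a gene had several, by the one with the highest mean over the 6 arrays. Other mouse genes with such symbols are not analysed here.

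The cascade passes a signal through kinases that phosphorylate one another in series. MAP4K enzymes or small GTPases act on MAP3K enzymes, these phosphorylate MAP2K enzymes, and each MAP2K phosphorylates a threonine and a tyrosine in the activation loop of its MAP kinase. The ERK branch is best known for growth factor signals, the JNK and p38 branches for stress and cytokine signals, and p38 activation is a known feature of injured podocytes. Podocytes cover the glomerular capillaries of the kidney with interlocking foot processes and so take part in filtration. Staufen2 binds double-stranded stretches of RNA and is best known from the transport of mRNA along dendrites.

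Both groups came from the same kind of culture, an immortalized murine podocyte line that was propagated at 33 °C with gamma-interferon and differentiated at 37 °C without it. The input group held 3 samples of total RNA, and the pulldown group held 3 samples of the RNA that a Staufen2 antibody brought down from a cytoplasmic lysate, cleared beforehand with protein G beads. Each array was labelled from 100 ng of RNA, so a value describes a gene's place in the RNA of its sample and not the amount recovered. A single line stands for the podocyte here, a control-antibody pulldown was not analysed here, and a higher value in the pulldown is therefore recovery relative to input and not binding as such. Since no label states that replicates were separate cultures, the p-values reflect the variation among these samples alone, and that variation may be technical.

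Values are log2 expression values. The array medians lay between 6.53 and 6.54, and pairs of arrays correlated at Pearson's r of 0.998 to 0.999 within a group and 0.982 to 0.983 across groups. A signal below the overall probe-set median (6.54) can be background, and genes whose higher group mean did not exceed that level are called dim. Of all 19938 genes 12162 exceeded it. Of 11 measured podocyte markers 7 exceeded it by the higher group mean, with Wt1 at 9.57 and Synpo at 8.29 in the input. Plce1 did so only in the pulldown (6.06 in the input, 6.72 in the pulldown). Nphs1, the defining slit diaphragm gene, stood at 6.30 in the input and was dim, as were Podxl (6.04), Tcf21 (5.91) and Ptpro (6.10). Of the markers of other cells, 6 of 8 mesangial and fibroblast genes, 3 of 8 endothelial, 8 of 10 tubular and parietal and 2 of 7 immune genes exceeded the median. Among these Des, Slc12a3 and Slc34a1 did so only in the pulldown, with input means of 6.48, 6.52 and 6.49. Of these lists 7 podocyte, 3 mesangial and fibroblast, 3 endothelial and 4 tubular genes were higher in the pulldown, and 0, 1, 1, 2 and 2 (immune) were lower. Among all genes 31.3% were higher and 17.3% lower. Podxl, Tek and Kdr among the higher genes and Emcn among the lower were dim. The part of the markers in the results was not tested. For the levels in the input, which is bulk RNA, fewer cells of a type and less RNA per cell cannot be told apart.

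Most cascade kinases made up a larger part of the pulldown RNA than of the input. Of the 38 genes, limma's moderated test called 28 higher and 2 lower, and left 8 uncalled, at a Benjamini-Hochberg adjusted p under 0.05. Among all genes 48.7% passed the same test, 31.3% being higher and 17.3% lower, and of these calls 64.4% were in the higher direction, or 52.9% after cyclic loess scaling. The median log2 difference (pulldown minus input) was 0.36 over the 38 kinases and 0.042 over all genes. Brighter genes were called more often in the whole table, since 45.9% of the genes above the probe-set median were higher and 26.8% lower. Of the 33 kinases above that median 27 were called higher, 2 lower and 4 neither. In 30 kinases no pulldown value fell among the input values, 28 of them with the pulldown above the input, while 55.9% of all genes were separate in either direction and 36.4% with the pulldown above. The only kinase gene that differed by at least 2-fold was Map3k13, a size of difference that 3.67% of all genes reached with a call. Tested against a 1.2-fold change with limma's treat, 11 of the 30 called kinases lost their call, namely Mapk8, Mapk12, Map2k1, Map2k2, Map2k4, Map2k5, Map2k6, Map3k6, Map3k11, Map3k12 and Map4k1.

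**Figure D1:**
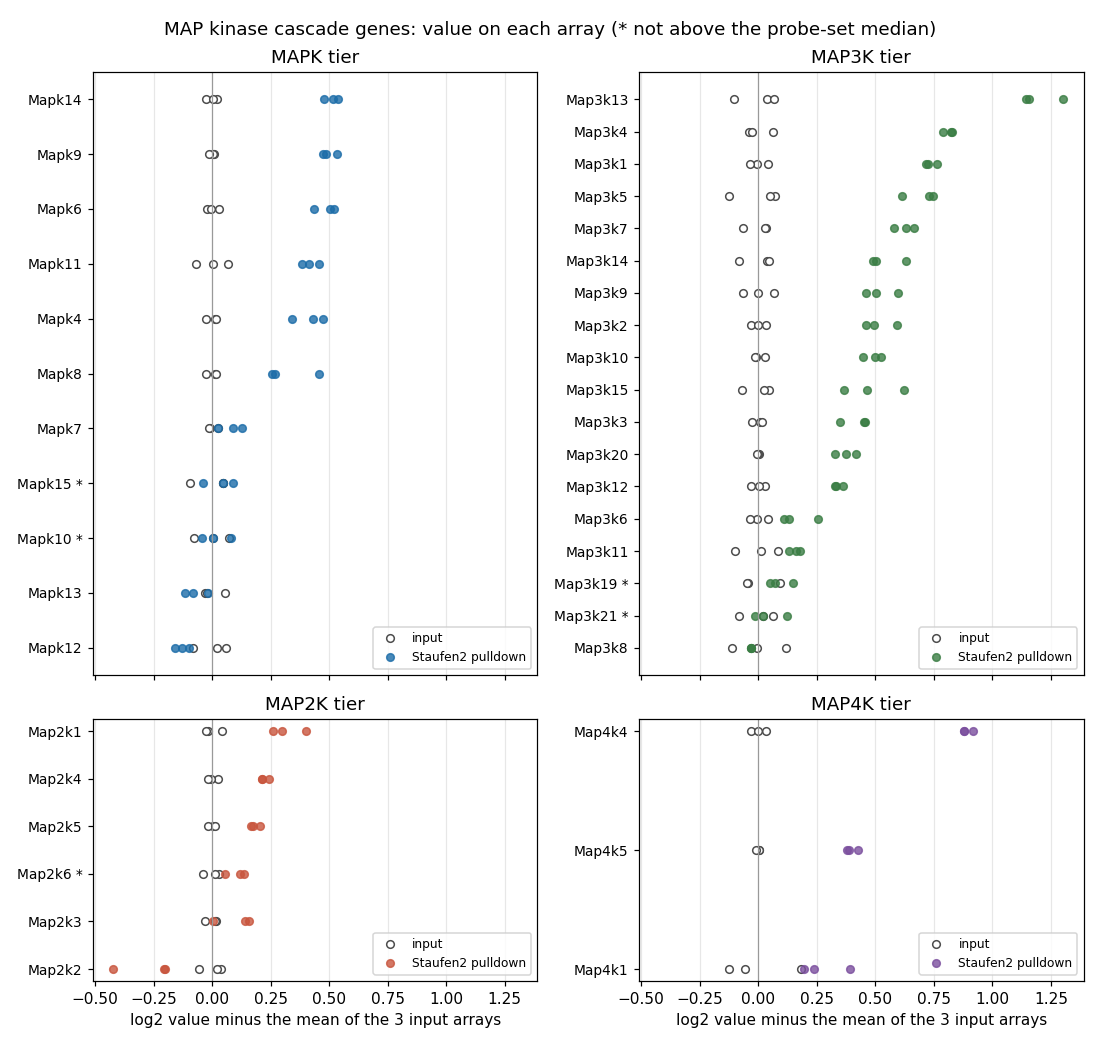
Each point is the log2 value of a gene on 1 array, minus the mean of the 3 input arrays, for the 38 kinases in 4 panels by tier, with open points for input and filled points for pulldown. In the MAP3K panel 15 of 18 genes have all pulldown points to the right of all input points, and in the MAP2K panel Map2k2 lies to the left.

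The MAP3K tier had the highest median and the MAP2K tier the lowest. The median log2 difference was 0.49 for the 18 MAP3K genes (range -0.033 to 1.201), 0.40 for the 3 MAP4K genes (0.28 to 0.89), 0.33 for the 11 MAP kinases (-0.13 to 0.51) and 0.14 for the 6 MAP2K genes (-0.28 to 0.32). The medians of single pulldown arrays against the input means were 0.41 to 0.50 for the MAP3K tier, 0.38 to 0.43 for MAP4K, 0.26 to 0.34 for MAPK and 0.14 to 0.18 for MAP2K. These medians thus overlapped between MAP3K and MAP4K, and those of the MAP2K tier lay below all others. Differences between tiers were not tested, since the members of a tier are not replicates. After cyclic loess scaling the medians were 0.40, 0.30, 0.22 and 0.072 in the same order.

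In the tier of the MAP kinases themselves, which phosphorylate transcription factors and further kinases, 6 genes were higher, 1 was lower and 4 did not pass. Of the p38 genes 2 were higher, 1 was lower and 1 did not pass. Mapk14, encoding p38 alpha, stood at 11.11, 11.07 and 11.10 on the input arrays and at 11.63, 11.57 and 11.61 on the pulldown arrays. The groups were separate, and the log2 difference was 0.51 ± 0.029 (SE), or 1.42-fold higher (limma adjusted p = 4.1e-06). Mapk11, encoding p38 beta, had input values of 9.31, 9.17 and 9.25 and pulldown values of 9.66, 9.70 and 9.63. It was higher by 0.42 ± 0.041 (limma adjusted p = 7.7e-05), again without overlap. Mapk12, encoding p38 gamma, went the other way, from 8.63, 8.49 and 8.59 to 8.44, 8.41 and 8.47. Its lowest input value lay only slightly above its highest pulldown value, and the difference of -0.13 ± 0.042 (limma adjusted p = 0.038) lost its call in 7 alternatives, among them when each of the input arrays 1 and 3 and any of the 3 pulldown arrays was left out (adjusted p = 0.059 to 0.12). Mapk13, encoding p38 delta, did not pass at -0.071 ± 0.039 (adjusted p = 0.18) and stood near the probe-set median, with an input mean of 6.77. After cyclic loess both were lower, Mapk12 at -0.22 (adjusted p = 0.0019) and Mapk13 at -0.12 (adjusted p = 0.032).

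The 3 JNK genes stood as follows. Mapk9, encoding JNK2, read 10.87, 10.87 and 10.85 in the input and 11.35, 11.34 and 11.40 in the pulldown, a log2 difference of 0.50 ± 0.029 (limma adjusted p = 4.2e-06). Mapk8, encoding JNK1, read 10.32, 10.35 and 10.36 in the input and 10.60, 10.61 and 10.80 in the pulldown. All pulldown values exceeded all input values, the 3rd pulldown array stood above the other two, and the difference was 0.33 ± 0.056 (limma adjusted p = 0.0017). Mapk10, encoding the mainly neuronal JNK3, was dim, with means of 6.02 in the input and 6.04 in the pulldown, and did not pass (adjusted p = 0.82).

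The atypical MAP kinases ERK3 and ERK4, which lack the usual activation motif and act on the kinase encoded by Mapkapk5, were both higher in the pulldown. Mapk6 (ERK3) was among the brightest cascade genes and went from 11.62, 11.57 and 11.59 to 12.10, 12.03 and 12.12. This is a log2 difference of 0.49 ± 0.033 (limma adjusted p = 9.9e-06). Mapk4 (ERK4) had a mean of 7.84 ± 0.024 in the input and 8.26 ± 0.068 in the pulldown (SD, n = 3), a difference of 0.41 ± 0.040 (limma adjusted p = 6.4e-05). Mapkapk5 itself did not differ by this test, at -0.011 (adjusted p = 0.84). It is named here after its value was seen. Mapk7, encoding the large kinase ERK5, had input values of 9.12, 9.12 and 9.16 and pulldown values of 9.26, 9.16 and 9.23. Its groups touched at 9.16, and its difference of 0.080 ± 0.035 did not pass (adjusted p = 0.097), though it passed without pulldown array 2 (0.11, adjusted p = 0.027) and with array weights (adjusted p = 0.044). Mapk15 (ERK8) was dim at 6.28 and 6.32 and did not pass (adjusted p = 0.64).

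In the MAP2K tier 4 genes were higher, 1 was lower and 1 did not pass. Map2k1, encoding MEK1 of the ERK branch, was higher, and Map2k2, encoding its close relative MEK2, was lower. Map2k1 stood at 11.21, 11.27 and 11.20 in the input and at 11.53, 11.49 and 11.63 in the pulldown, a log2 difference of 0.32 ± 0.044 (limma adjusted p = 0.00050). Map2k2 stood at 10.26, 10.24 and 10.16 in the input and at 10.02, 9.80 and 10.02 in the pulldown. No value of one group reached the other, pulldown array 2 was the lowest, and the difference was -0.28 ± 0.064 (limma adjusted p = 0.0083), a 1.21-fold lower value. It remained lower and called in all alternatives but the test against a 1.2-fold change, with adjusted p-values up to 0.042.

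The MAP2K genes of the JNK, p38 and ERK5 branches had differences of 0.10 to 0.22. Map2k4, encoding an activator of JNK, read 11.47, 11.44 and 11.43 against 11.66, 11.66 and 11.69, a difference of 0.22 ± 0.028 (limma adjusted p = 0.00028) that shrank to 0.12 after cyclic loess. Map2k5, encoding the activator of ERK5, went from 9.06 ± 0.015 to 9.25 ± 0.020 (SD, n = 3). Its difference of 0.18 ± 0.027 (limma adjusted p = 0.00077) fell to 0.073 after cyclic loess and no longer passed (adjusted p = 0.056). Of the p38 activators, Map2k3 read 11.07, 11.07 and 11.03 in the input and 11.20, 11.06 and 11.21 in the pulldown. Pulldown array 2 lay within the input values, and the gene did not pass (0.10 ± 0.045, adjusted p = 0.11). It passed without that array (0.15, adjusted p = 0.0077) and with array weights (adjusted p = 0.047), while the difference was -0.0039 after cyclic loess. Map2k6 passed at 0.10 ± 0.034 (limma adjusted p = 0.039), but it was dim, with means of 5.93 and 6.03, and its call was lost in 9 of 13 alternatives, among them the omission of input array 2 or 3 or of pulldown array 2 or 3. Of the 4 higher MAP2K genes 2, Map2k1 and Map2k4, kept their call after cyclic loess.

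The MAP3K tier, which receives most of the upstream signals, held the largest difference of the 38 kinases, with 15 of 18 genes higher, none lower and 3 not past the test. Map3k13 and its close relative Map3k12, encoding the leucine zipper kinases LZK and DLK that act in the response to axon injury, were both higher. Map3k13 read 7.20, 7.35 and 7.37 on the input arrays and 8.61, 8.45 and 8.46 on the pulldown arrays. The gap between the groups was many times the spread within them, and the log2 difference of 1.201 ± 0.060 (limma adjusted p = 2.2e-06) made the gene 2.30-fold higher. Of all 19938 genes, 99.5% had a smaller difference. Map3k12 went from 9.67 ± 0.028 to 10.01 ± 0.018 (SD, n = 3), higher by 0.34 ± 0.029 (limma adjusted p = 3.1e-05). Its 2nd probe set was dim (5.49 in both groups) and did not differ (0.0010, adjusted p = 0.99), so that the mean of both probe sets gave 0.17.

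Map3k4 and Map3k1, encoding MEKK4 and MEKK1 of the JNK and p38 branches, followed. Map3k4 went from 9.67, 9.57 and 9.58 to 10.43, 10.39 and 10.43, a log2 difference of 0.81 ± 0.036 (limma adjusted p = 1.2e-06). Map3k1 went from 7.90, 7.87 and 7.95 to 8.67, 8.63 and 8.63, a difference of 0.73 ± 0.031 (limma adjusted p = 1.1e-06). In both genes the pulldown arrays lay close together and far above the input. Map3k2 and Map3k3, encoding MEKK2 and MEKK3 upstream of Map2k5 and ERK5, were higher by 0.51 ± 0.041 and 0.42 ± 0.037 (limma adjusted p = 2.2e-05 and 3.9e-05).

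Map3k7 encodes TAK1, which relays TGF-beta, interleukin and Toll-like receptor signals, and had the highest input value of the tier. It read 11.73, 11.72 and 11.63 in the input and 12.32, 12.27 and 12.36 in the pulldown, a log2 difference of 0.63 ± 0.039 (limma adjusted p = 6.3e-06). Map3k14, encoding NIK of the noncanonical NF-kappa B pathway, went from 8.62 ± 0.072 to 9.16 ± 0.077 (SD, n = 3), a difference of 0.54 ± 0.052 (limma adjusted p = 6.5e-05). Map3k20, encoding the ribotoxic stress kinase ZAK, had 3 nearly equal input values between 11.21 and 11.22 and pulldown values of 11.59, 11.55 and 11.64. It was higher by 0.37 ± 0.031 (limma adjusted p = 3.0e-05). Map3k8, encoding TPL2 of the ERK branch in immune cells, did not pass (-0.033, adjusted p = 0.65). Its 3 pulldown arrays gave the same value of 6.82, between the input values of 6.74, 6.97 and 6.85, so the spread within that group was 0.

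The ASK kinases respond to oxidative and osmotic stress. Map3k5 (ASK1) read 6.75, 6.95 and 6.92 in the input and 7.49, 7.60 and 7.62 in the pulldown. It was not far above the probe-set median in the input, input array 1 was the lowest, and the log2 difference was 0.70 ± 0.061 (limma adjusted p = 3.8e-05). Map3k15 (ASK3) was higher by 0.48 ± 0.066 (limma adjusted p = 0.00048), with pulldown values spread from 8.49 to 8.74 above input values of 8.05 to 8.17. Map3k6 (ASK2) went from 6.82 ± 0.039 to 6.99 ± 0.077 (SD, n = 3), a difference of 0.17 ± 0.045 (limma adjusted p = 0.017). Its call was lost after cyclic loess (adjusted p = 0.059) and without input array 1 (0.057) or input array 2 (0.063).

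The mixed-lineage kinases, which activate JNK downstream of Rac and Cdc42, comprised 3 higher and 1 dim gene. Map3k9 (MLK1) read 6.97, 6.91 and 7.04 in the input and 7.57, 7.48 and 7.43 in the pulldown, higher by 0.52 ± 0.048 (limma adjusted p = 5.4e-05). Map3k10 (MLK2) went from 8.09 ± 0.024 to 8.58 ± 0.038 (SD, n = 3), a difference of 0.49 ± 0.031 (limma adjusted p = 6.9e-06). Map3k11 (MLK3) read 9.41, 9.52 and 9.60 in the input and 9.69, 9.64 and 9.67 in the pulldown, a narrow separation with a difference of 0.16 ± 0.048 (limma adjusted p = 0.030). Its call was lost after cyclic loess (0.044, adjusted p = 0.50) and in 5 of the 6 fits that left out 1 array (all but that without input array 3), with adjusted p-values from 0.057 to 0.0991. Map3k21 (MLK4) and Map3k19 were dim, with input means of 5.77 and 5.35, and did not pass (adjusted p = 0.52 and 0.17), although Map3k19 passed without input array 1 (0.14, adjusted p = 0.033).

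The 3 MAP4K genes were all higher. Map4k4, encoding HGK, a kinase that acts on JNK signalling and the turnover of focal adhesions, read 11.12, 11.05 and 11.09 in the input and 11.96, 11.97 and 12.01 in the pulldown. It had the smallest adjusted p of the 38 kinases (4.7e-07 by limma), with a log2 difference of 0.89 ± 0.030, or 1.86-fold, and 97.4% of all genes had a smaller difference. Map4k5 went from 11.62, 11.62 and 11.61 to 11.99, 12.04 and 12.00, higher by 0.40 ± 0.027 (limma adjusted p = 9.9e-06). Map4k1, encoding HPK1, a kinase of blood cells, read 7.67, 7.60 and 7.91 in the input and 7.97, 7.92 and 8.12 in the pulldown. The highest input value nearly reached the lowest pulldown value, and the difference of 0.28 ± 0.086 (limma adjusted p = 0.032) lost its call after cyclic loess (adjusted p = 0.072), without input array 1 (0.12) or 2 (0.11) and without pulldown array 1 (0.072) or 3 (0.12).

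Related kinases were then set against each other through the log2 ratio of both genes on each array, which asks whether they differed between pulldown and input to an equal degree. Of 8 pairs compared, the ratio in the pulldown arrays was separate from that in the input arrays for 4. The values below compare the log2 differences (pulldown minus input) of 2 genes, not their levels. The difference of Map2k1 exceeded that of Map2k2 by 0.60 ± 0.060 (SE, n = 3). That of Map3k5 exceeded that of Map3k6 by 0.53 ± 0.074, and that of Map3k9 exceeded that of Map3k11 by 0.36 ± 0.062. For Mapk8 minus Mapk9 the value was -0.17 ± 0.051. Each of these had an exact 2-sided permutation p = 0.10, which is the smallest that 3 against 3 arrays allow, and 0.20 after Benjamini-Hochberg adjustment over the 8 pairs. In the other pairs the ratios overlapped. The value was 0.092 ± 0.043 for Mapk14 minus Mapk11 (exact permutation p = 0.20) and 0.073 ± 0.061 for Mapk6 minus Mapk4 (exact permutation p = 0.30). It was 0.096 ± 0.042 for Map3k2 minus Map3k3 (exact permutation p = 0.20) and -0.0038 ± 0.066 for Map2k3 minus Map2k6 (exact permutation p = 1.0). In the last pair 1 gene was dim, and the sign turned when input array 2 (0.024) or pulldown array 2 (0.053) was left out.

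**Figure D2:**
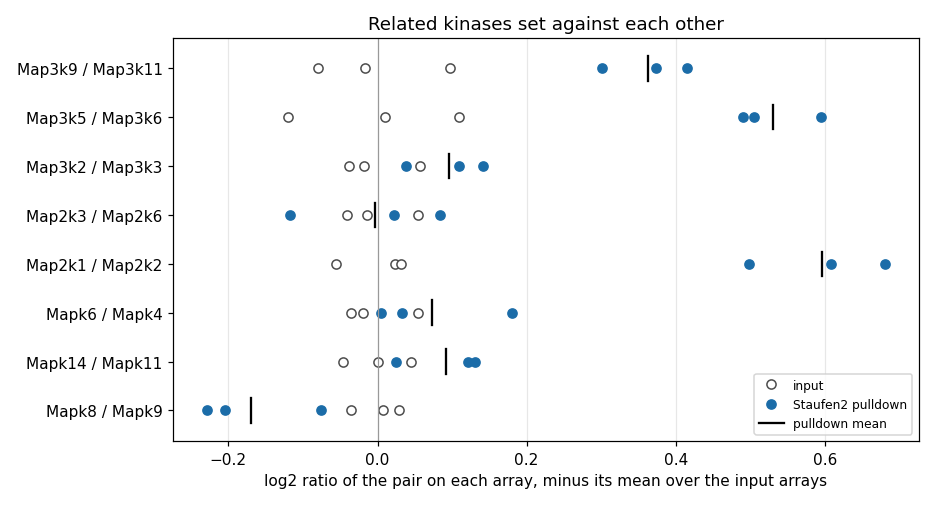
Points give the log2 ratio of the first to the second gene of each pair on each of the 6 arrays, minus the mean ratio of the 3 input arrays, with open points for input, filled points for pulldown and a bar at the pulldown mean. The Map2k1 to Map2k2 ratio is the most shifted of the 8, by 0.60, and the Map2k3 to Map2k6 ratio the least.

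The genomic span of a gene, which includes introns and is only a coarse measure of its RNA, varied from 5.42 kb (Mapk15) to 304 kb (Mapk10) among the kinases. Spearman's correlation between span and log2 difference was 0.43 over the 38 kinases and 0.52 over the 33 above the probe-set median, against 0.48 over 11768 coding genes above that median. These are descriptions over genes that share the same 6 arrays, and no p is given. Of the kinases above the median, all 12 that span 30 to 100 kb and all 8 that span over 100 kb were higher, where 64.4% and 74.9% of all such coding genes were. Of the 13 that span under 30 kb 7 were higher, 2 lower and 4 did not pass, against 31.7% higher among all such genes. Lower genes numbered 2566 of all 6856 coding genes spanning under 30 kb. They numbered 460 of 3364 spanning 30 to 100 kb and 121 of 1548 spanning over 100 kb. Both lower kinases, Map2k2 at 18.8 kb and Mapk12 at 11.0 kb, were in the class under 30 kb. So were Mapk11 at 7.13 kb and Map3k10 at 18.3 kb, which were higher by 0.42 and 0.49. The median difference of the kinases was 0.16, 0.51 and 0.45 in the short, middle and long class, and that of all coding genes -0.0073, 0.27 and 0.42. In the long class the kinases thus stood close to the other genes.

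**Figure D3:**
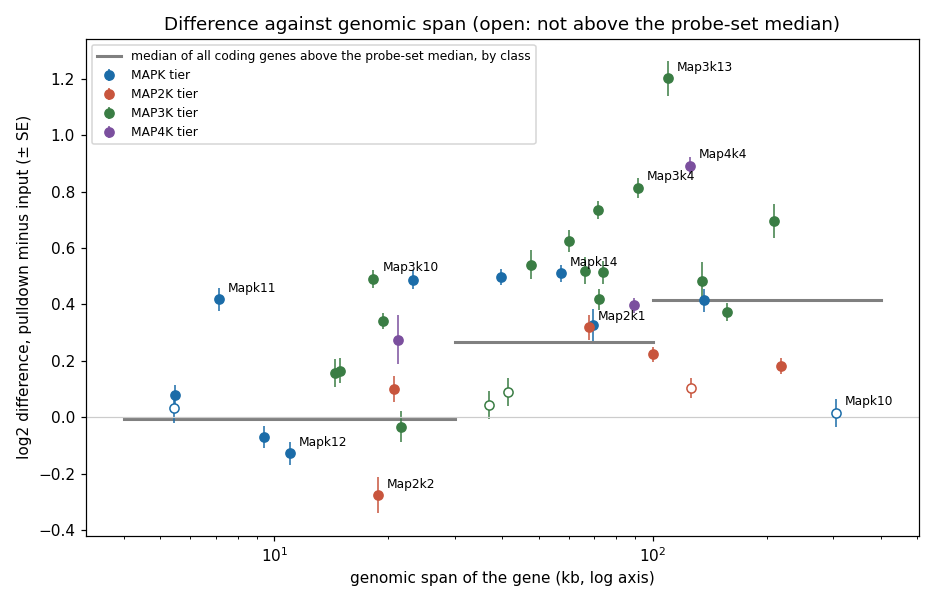
The log2 difference (pulldown minus input, with SE) of each kinase is plotted against its genomic span in kb on a log axis, coloured by tier, with open points for dim genes and grey bars for the median of all coding genes above the probe-set median in each span class. Map3k13 stands highest at 1.201 and Map2k2 lowest at -0.28.

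The other genes of the pathway were taken from 6 lists drawn up with earlier results of these data known. For comparison with their counts, 31.3% of all genes were higher and 17.3% lower. Of the genes above the probe-set median, where most listed genes lay, 45.9% were higher and 26.8% lower. Among 15 further kinases that act at the level of the MAP3K and MAP4K enzymes, or alongside the cascade, 11 were higher, 0 lower and 4 were not called (median 0.45). The Ste20 kinases Tnik and Pak3 were higher by 0.96 ± 0.052 and 0.89 ± 0.030, Taok1 by 0.75 ± 0.031, and Braf, the Raf kinase that activates MEK1 and MEK2, by 0.64 ± 0.030 (limma adjusted p = 4.7e-07 to 3.1e-06). Its relative Araf, named after its value was seen, did not pass at -0.097 (adjusted p = 0.069). After cyclic loess 2 of the 15 were lower, and 1 after centring or without input array 2.

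Among 23 genes of the Ras switch and its adaptors 16 were higher, 3 lower and 4 were not called (median 0.42). The higher genes included both an activator and inhibitors of Ras. The exchange factor Sos2 was higher by 0.80 ± 0.031, the GTPase-activating proteins Rasal2 and Nf1 by 1.14 ± 0.033 and 0.95 ± 0.027, and Spred1, an inhibitor of Raf activation, by 0.92 ± 0.036 (limma adjusted p = 2.8e-07 to 8.0e-07). The 3 lower genes were Rras (-0.26), Cdc42 (-0.17) and, narrowly, Rac1 (-0.11, limma adjusted p = 0.047). Of the other small GTPases of the list, Nras was higher by 0.37 and Mras by 0.12 (limma adjusted p = 8.7e-05 and 0.022), and Rap1a (-0.070), Rap1b (-0.023) and Rras2 (-0.0018) were not called. These 8 were named after their values were seen. After cyclic loess 7 genes of the list were lower, and with treat 0.

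Scaffolds and adaptors, which hold kinases of a cascade together, went both ways, with 16 of 25 higher, 5 lower and 4 not past (median 0.23). The scaffold Iqgap1 was higher by 0.85 ± 0.029, Mapk1ip1l by 1.02 ± 0.035 and Tab3, the partner of TAK1, by 0.84 ± 0.029. Lamtor4 was lower, at -1.43 ± 0.041, and limma adjusted p-values for these 4 genes were 2.9e-07 to 4.9e-07. The other lower genes, named after their values were seen, were Lamtor2 (-1.03), Lamtor5 (-0.80), Mapk8ip1 (-0.29) and Mapk1ip1 (-0.29). Lamtor2, Lamtor4 and Lamtor5 encode small subunits of the Ragulator complex on lysosomes. Of the other subunits, Lamtor1 was higher by 0.14 with overlapping groups (limma adjusted p = 0.047). Lamtor3, which binds MEK1, did not pass at -0.055 (adjusted p = 0.22). The median of the list was 0.13 after cyclic loess and 0.38 without dim genes, and with treat 3 were lower.

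Downstream of the MAP kinases, 5 of 8 kinases that they activate were higher, 0 lower and 3 not past (median 0.14). Rps6ka5, encoding MSK1, was higher by 0.64 ± 0.056, Rps6ka3 (RSK2) by 0.26 ± 0.034, Mknk2 by 0.22 ± 0.042 and the p38 substrate Mapkapk2 by 0.14 ± 0.029 (limma adjusted p = 3.8e-05 to 0.0046). After cyclic loess 2 of the 8 were higher and 2 lower (median 0.041), the calls of Mknk2 (0.11, adjusted p = 0.062) and Mapkapk2 (0.043, adjusted p = 0.29) were lost, and Rps6ka3 stood at 0.15. With treat 1 was higher, and Rps6ka3, Mknk2 and Mapkapk2 lost their calls. Among 15 phosphatases that act on the cascade 10 were higher, 0 lower and 5 were not called (median 0.19). Dusp4, encoding a nuclear MAP kinase phosphatase, was higher by 1.08 ± 0.084, Dusp7 by 0.57 ± 0.026, Dusp16 by 0.52 ± 0.037 and Ppm1b by 0.29 ± 0.030 (limma adjusted p = 1.4e-06 to 9.9e-05). After cyclic loess 3 phosphatases were lower and the median was 0.092, and 1 was lower after centring or without input array 2 or 3. With treat 3 were higher, and Ppm1b lost its call (adjusted p = 0.65).

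Of 24 transcription factors at the end of the cascade 12 were higher, 4 lower and 8 were not called (median 0.15). The probe-set median was exceeded by 23 of them, and 45.9% of all genes above it were higher and 26.8% lower. With 12 of these 23 higher, the list stood near that share. Etv5 was higher by 0.84 ± 0.047, Ets1 by 0.58 ± 0.031, Elk4 by 0.55 ± 0.031 and Creb1 by 0.54 ± 0.033 (limma adjusted p = 3.1e-06 to 5.8e-06). The 4 lower genes, named after their values were seen, were Jund (-0.56), Ddit3 (-0.43), Fos (-0.37) and Egr1 (-0.21). Egr1 passed narrowly (limma adjusted p = 0.046), and its groups touched at 10.49. Of the other AP-1 genes of the Jun and Fos families, also named after their values were seen, Jun (0.37) and Fosl2 (0.26) were higher. Junb, Fosb and Fosl1 were not called. After cyclic loess 7 of the 24 were lower (median 0.041), and with treat 7 were higher.

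**Figure D4:**
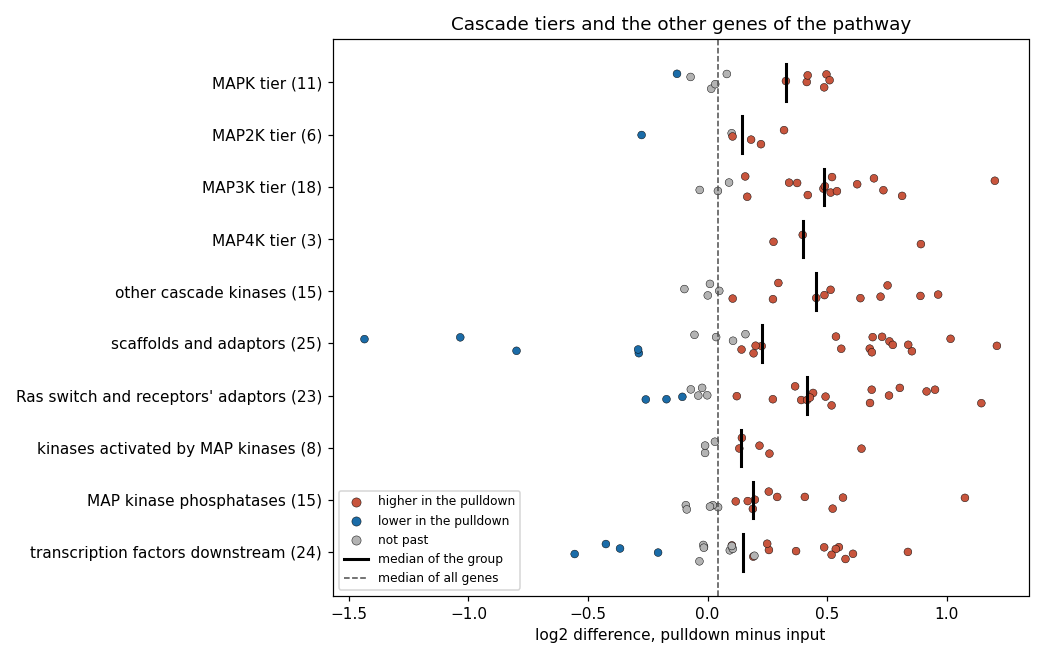
Each point is the log2 difference (pulldown minus input) of 1 gene, for the 4 tiers and the 6 lists of other pathway genes with their number of genes in brackets, coloured by call, with a black bar at the median of the group and a dashed line at the median of all genes (0.042). The medians run from 0.14 (MAP2K tier and kinases activated by MAP kinases) to 0.49 (MAP3K tier).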

How the data were processed

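The deposited values, made by the authors with RMA per the submitters' processing notes, are log2 expression values for 35556 probe sets on 6 arrays; the sources used here give neither versions nor a genome build. Of these, 21789 had 1 gene symbol in the platform's annotation, which gave 19938 genes; all 38 kinases matched the gene table (GRCm38.p6) by Entrez identifier, from which spans were taken. No sequences were used. Differences are pulldown minus input from limma 3.58.1 in R 4.3.3 (2-sided, no covariates), with Benjamini-Hochberg adjustment over all genes and moderated standard errors. Pairs of kinases were tested by exact permutation of the 6 arrays. Members, pairs and lists were chosen with earlier results of these data known. All kinases were eligible to be named, and of each pathway list the 4 genes with the smallest adjusted p. Replicate numbers were taken as names, since same-numbered samples did not deviate together (r = 0.024, 0.11 and -0.060). The fit was tested on simulated data with independent normal errors. It recovered 83.6% of 67 genes moved by a log2 difference of 0.25, 97.0% of 67 moved by 0.5 and 98.5% of 66 moved by 1.0. Of its 194 calls 8 were false. Far fewer genes were moved than were called in the real data, and smaller differences were not simulated, so the calls themselves were not tested by it. The number of arrays limits the precision. Alternatives were a replicate block, an intensity trend, cyclic loess, centring on probe sets above the 75th percentile, leaving out genes below the probe-set median, averaging all probe sets per gene, array weights, a test against a 1.2-fold change (treat) and leaving out each array.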

Additional observations from a re-analysis of the deposited data

How the results depend on the processing

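Of the 38 kinases, the number that kept both direction and side of the threshold was 37 with an intensity trend, centring or averaged probe sets, 35 with array weights, 28 after cyclic loess, 27 with treat and 31 to 36 without 1 array. All 33 fitted after leaving out dim genes kept both. With the replicate block, a fit in which same-numbered arrays are paired, 9714 genes were called in place of 9705, and of the kinases only Map2k6 lost its call (adjusted p = 0.072). The cause of the changes below was not tested.

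Treat called 3034 genes higher and 1822 lower, against 6246 and 3459, and cyclic loess 5127 and 4565. In the MAPK tier 0 genes were lower with a trend or treat, 2 after cyclic loess and 0 to 1 without 1 array. In the MAP2K tier 2 genes were higher after cyclic loess, and with treat 0 were higher and 0 lower. Among further cascade kinases 2 were lower after cyclic loess, 1 after centring and 0 to 1 without 1 array. With treat 3 scaffolds were lower, 0 Ras switch genes lower, 1 MAP kinase-activated kinase higher, 3 phosphatases higher and 7 transcription factors higher. After cyclic loess 7 Ras switch genes, 2 activated kinases, 3 phosphatases and 7 transcription factors were lower, and 2 activated kinases higher. Of the phosphatases 1 was lower after centring and 0 to 1 without 1 array.

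Cyclic loess gave median differences of 0.22 (MAPK), 0.072 (MAP2K), 0.40 (MAP3K), 0.30 (MAP4K), 0.39 (further kinases), 0.13 (scaffolds), 0.31 (Ras switch), 0.041 (activated kinases), 0.092 (phosphatases) and 0.041 (transcription factors). Without dim genes the medians were 0.41 (MAPK), 0.18 (MAP2K), 0.50 (further kinases), 0.38 (scaffolds) and 0.19 (transcription factors). The Ras switch median was 0.40 after centring and 0.44 with averaged probe sets, and that of transcription factors 0.14 after centring and 0.16 with array weights. Without 1 array the medians were 0.26 to 0.36 (MAPK), 0.13 to 0.17 (MAP2K), 0.39 to 0.43 (Ras switch) and 0.12 to 0.18 (transcription factors).

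Signs turned in 6 differences, none of which was called with the deposited scaling and all arrays, although Mapk7 and Map2k3 passed with array weights and without pulldown array 2. These were Mapk10 (-0.019 after cyclic loess, -0.012 with averaged probe sets, -0.024 to 0.051 without 1 array, with -0.018 without pulldown array 1), Mapk15 (-0.0090 after cyclic loess, -0.015 to 0.067 without 1 array), Mapk7 (-0.029) and Map2k3 (-0.0039) after cyclic loess, Map3k8 (-0.089 to 0.025 without 1 array, positive without input array 2) and Map2k3 minus Map2k6 (0.024 to 0.053 without input array 2 or pulldown array 2, and -0.048 at the lowest). Dim signals limit what can be seen of Mapk10, Mapk15, Map2k6, Map3k19 and Map3k21.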
